A study of Mus musculus with 44 samples.

Results

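The 7 libraries described here follow the epithelium of the mouse embryonic gut from the E9.5 midgut (emMidgut, 4 libraries) to the E13.5 small intestine (emSI, 3 libraries). They were chosen by their titles from the 44 RNA libraries of the series. Embryos were made by aggregating GFP-labelled mouse embryonic stem cells with mCherry-labelled morulae, so that embryonic cells were GFP+ and extraembryonic cells mCherry+. The stem cells were of a male line with a constitutive EGFP cassette, expanded from picked clones each derived from a single cell. The emMidgut cells were EPCAM+ cells positive for both GFP and mCherry, gated for a low mCherry signal, from wild-type E9.5 embryos. Such doubly labelled cells are held by the study to be embryonic cells that carry remnants of extraembryonic cells. They were sorted after magnetic enrichment for EPCAM, and each library pooled the midguts of 4 embryos. The emSI cells were EPCAM+ GFP+ wild-type cells, sorted without that enrichment from single E13.5 embryos whose extraembryonic lineage was knocked out for Trp53. Stage therefore changed together with sorting day, gate, enrichment, pooling, the genotype of the host's extraembryonic cells and depth, and these cannot be told apart. Embryonic hindgut (emHindgut, E9.5, 4 libraries, the same low mCherry gate) and colon (emColon, E13.5, 3 libraries) of the same GFP+ lineage, and the mCherry+ cells of the midgut (exMidgut, E9.5, wild type, 4 libraries) and small intestine (exSI, E13.5, Trp53 knockout, 3 libraries), served as comparisons.

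The midgut is the middle stretch of the primitive gut tube, a simple epithelium of endoderm cells inside a sleeve of mesenchyme. Over midgestation it lengthens and becomes a thicker, dividing epithelium, after which villi form and absorptive enterocytes and secretory cells differentiate. CDX2 sets intestinal identity, HNF4 factors bind the promoters of genes for absorption and lipid handling, and the dorsal pancreas and stomach bud from the neighbouring endoderm.

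Expression was read as TPM (transcript abundance scaled to the same total in every library) from the deposited gene tables. EGFP lay between 701 and 880 TPM in emMidgut and between 474 and 650 TPM in emSI. The transcript of mCherry, whose protein was part of the emMidgut gate, was listed at 5.29, 0, 0 and 0 TPM in emMidgut 1 to 4, so at 0 in 3 of the 4 libraries, and at 0 in every emSI library. Epcam, which encodes the surface protein used for the sort, lay between 791 and 892 TPM in emMidgut and between 849 and 1135 TPM in emSI. Aligned sequence came to between 4.72 and 8.12 Gb per emMidgut library and between 10.1 and 11.6 Gb per emSI library, yet genes above 1 TPM numbered 13426 to 13593 in emMidgut and 11899 to 12439 in emSI. Some libraries stood apart. The pluripotency and germ cell genes Dppa3 and Pou5f1 were listed at 224, 0, 183 and 0 TPM and 93.6, 0, 131 and 0 TPM in emMidgut 1 to 4, so that both were present in libraries 1 and 3 and listed at 0 in libraries 2 and 4. The mesenchymal genes Col3a1, Lum and Acta2 were listed at 203, 43.9 and 0, 82.4, 32.1 and 0 and 423, 7.54 and 0 TPM in emSI 1 to 3, highest in emSI 1 and listed at 0 in emSI 3. Pou5f1, Col3a1, Lum and Acta2 were picked after their values were seen. In such bulk samples, fewer cells of a type and less RNA per cell cannot be told apart.

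Expression was compared with limma on log2(TPM + 1) over 12531 protein-coding genes above 1 TPM in at least 3 of the 7 libraries, and a gene was called where its Benjamini-Hochberg adjusted p was below 0.05 and its log2 difference beyond 1. The 4 emMidgut libraries correlated with each other at 0.935 to 0.942 (Pearson, on that log scale, across genes), the 3 emSI libraries at 0.877 to 0.889, and libraries of different stages at 0.828 to 0.842. Of the genes tested, 2100 (16.8%) were called, 407 higher in emSI (3.25%) and 1693 lower (13.51%). This split moved with the scaling. The median log2 difference over all genes tested was -0.37 with the deposited TPM, 0.01 after quantile normalization and -0.10 after median-ratio rescaling, and the higher and lower calls numbered 665 (5.31%) and 803 (6.41%) under quantile normalization (11.7% in all) and 689 (5.5%) and 1056 (8.43%) under median-ratio rescaling (13.9% in all). Under all 3 scalings, 389 genes (3.1%) were called higher and 721 (5.75%) lower. In 1098 genes (8.76%) every emSI library lay above every emMidgut library, and in 3056 (24.4%) every emSI library lay below. Below, a gene is said to have risen or fallen in emSI where it was called under all 3 scalings, and a gene called with the deposited TPM but not under all 3 is named as such. For list counts between the stages, the background is 3.25% higher and 13.51% lower as deposited, and 3.1% and 5.75% under all 3 scalings. Genes at 1 TPM or less in every emMidgut library passed the filter through all 3 emSI libraries. They leave the test when 1 emSI library is left out. Genes at 1 TPM or less in every emSI library passed it through emMidgut alone, and leave the test without both emMidgut 1 and 3. For both kinds the filter sets part of the separation between the stages, so their p is no separate support. Without emMidgut 1 and 3, the libraries with Dppa3, 11634 genes were tested, and the calls numbered 230 higher and 380 lower.

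**Figure D1:**
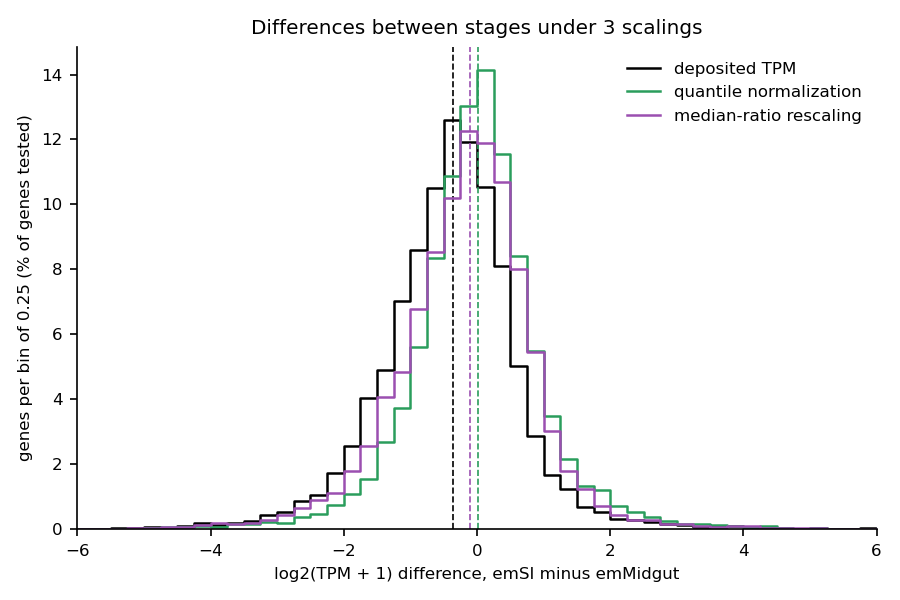
Distribution of the log2 difference (emSI minus emMidgut, log2(TPM + 1)) over the 12531 genes tested, as percent of genes per bin of 0.25, for the deposited TPM, after quantile normalization and after median-ratio rescaling; vertical lines mark the medians. The median of the deposited values lies at -0.37 and that after quantile normalization at 0.01, so that a gene with no difference on one scale is displaced on another.

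A small set of genes went from absence to plain expression. In 25 genes the emMidgut mean was under 1 TPM while every emSI library reached 10 TPM, and 43 genes did the reverse. The former held genes of mature enterocytes and of the exocrine pancreas (Fabp2, Cdh17, Hnf4g, Cpa1, Ctrb1), and the latter the RNA-binding protein gene Lin28a, the Wnt effector gene Lef1 and the posterior patterning genes Hoxa9, Hoxa10 and Hoxb9. The set of RefSeq promoters used here (GRCm38.p6) had an entry for 18 of the 25, and the promoter was taken as the 250 bases before the gene start. Then 2 short motifs were searched on both strands, AAAGTNCA, the core recognised by HNF4 factors, and TTTATNG, recognised by CDX factors; no match of one overlapped a match of the other in the promoters shown. Fabp2 and Cpa1 held both motifs and Agr2 held TTTATNG, and these 3 promoters are shown, 5′ to 3′ on the gene's strand, with the matches in capitals.

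Fabp2, chr3:122894822-122895071, plus strand:
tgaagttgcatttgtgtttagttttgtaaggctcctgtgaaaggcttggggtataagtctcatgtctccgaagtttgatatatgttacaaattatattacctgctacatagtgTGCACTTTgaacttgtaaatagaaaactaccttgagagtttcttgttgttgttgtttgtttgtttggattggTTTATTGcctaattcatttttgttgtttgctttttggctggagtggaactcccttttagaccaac
Cpa1, chr6:30638968-30639217, plus strand:
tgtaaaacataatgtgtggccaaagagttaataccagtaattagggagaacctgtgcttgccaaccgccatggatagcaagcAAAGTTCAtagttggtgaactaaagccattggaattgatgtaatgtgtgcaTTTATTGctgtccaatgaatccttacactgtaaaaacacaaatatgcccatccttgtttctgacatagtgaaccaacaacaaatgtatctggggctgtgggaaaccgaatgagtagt
Agr2, chr12:35992675-35992924, plus strand:
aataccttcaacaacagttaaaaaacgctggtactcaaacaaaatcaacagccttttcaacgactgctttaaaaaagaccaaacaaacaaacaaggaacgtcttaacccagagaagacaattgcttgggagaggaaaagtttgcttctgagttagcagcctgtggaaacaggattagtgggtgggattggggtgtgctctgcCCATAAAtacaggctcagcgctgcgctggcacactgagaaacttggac

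In Fabp2, AAAGTNCA was matched on the minus strand from 137 to 130 bases before the start and TTTATNG from 65 to 59 bases before it. In Cpa1 the matches lay from 168 to 161 and from 117 to 111 bases before the start, and in Agr2 from 48 to 42 bases before it, on the minus strand. Of all 27025 genes with a promoter entry, 4.13% held AAAGTNCA and 11.3% held TTTATNG. AAAGTNCA was held by 23 of the 304 genes called higher in emSI with an entry (7.57%), by 43 of the 1296 called lower (3.32%) and by 3.31% of the tested genes, and TTTATNG by 10.2%, 7.72% and 7.31% of them. A match is a description of letters and not a binding site.

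Among 27 intestinal and endodermal transcription factors tested, 8 rose in emSI and 5 were called lower, 3 of them under all 3 scalings. Over all genes, 3.25% were called higher and 13.51% lower, and 3.1% and 5.75% under all 3 scalings. The lower calls numbered 3 without emMidgut 3, and the list's median difference was 0.47 beside -0.37 for all genes. Hnf4a, a nuclear receptor gene of endodermal epithelia, stood at 4.27, 6.54, 14.4 and 13.02 TPM in emMidgut 1 to 4 and at 35.9, 57.4 and 30.6 TPM in emSI 1 to 3. No emMidgut library reached the lowest emSI library, and the log2 difference was 2.08 (SE 0.44, limma adjusted p = 0.00688). Its paralogue Hnf4g was nearly absent at first, at 0, 0.0317, 0 and 3.01 TPM, and reached 22.7, 24.7 and 16.3 TPM (log2 difference 3.94, SE 0.59). Isx, a homeobox gene of the intestinal epithelium, rose from 14.3, 46.7, 35.1 and 24.7 TPM to 112, 193 and 186 TPM (log2 difference 2.48, SE 0.36). Klf5, a factor of proliferating gut epithelium, and Elf3, an epithelial Ets factor, rose by 2.82 (SE 0.31) and 3.02 (SE 0.37) on the log2 scale, with no overlap between stages. Foxa1, a pioneer factor of the gut tube, was listed at 96.3, 127, 126 and 146 TPM in emMidgut and 27.2, 58.0 and 48.6 TPM in emSI (log2 difference -1.50, SE 0.26, adjusted p = 0.00243), and Foxa3 and Hhex, a foregut and liver bud gene, had log2 differences of -1.60 (SE 0.38) and -1.89 (SE 0.40). Each of these 3 was lower in every emSI library than in any emMidgut library.

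Cdx2, the regulator of intestinal identity, was high at both stages, at 320.1, 293, 384 and 401 TPM in emMidgut and 96.7, 259.6 and 179.8 TPM in emSI. The stages did not overlap, and Cdx2 was called lower with the deposited TPM (log2 difference -1.06, SE 0.27, adjusted p = 0.0172) but not after median-ratio rescaling (-0.77). It also lost the call without emMidgut 3 (-1.01), emMidgut 4 (-0.99) or emSI 1 (-0.68), the library with the most mesenchymal RNA.

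Several genes of the intestinal epithelium rose. Fabp2, which encodes the intestinal fatty acid binding protein, was listed at 0, 2.41, 0 and 0 TPM in emMidgut 1 to 4 and at 96.8, 138 and 46.8 TPM in emSI 1 to 3 (log2 difference 5.99, SE 0.58, adjusted p = 8.23e-05). Cdh17, the cadherin of the intestinal lateral membrane, was listed at 0 in all 4 emMidgut libraries and at 79.3, 60.4 and 43.1 TPM in emSI. Lypd8, which encodes a secreted protein that keeps flagellated bacteria off the colonic surface, was likewise at 0 in emMidgut and at 202, 183 and 94.5 TPM in emSI. Lgals4, a gut lectin gene, went from 8.94, 0.346, 14.4 and 0.291 TPM to 395, 489.6 and 293 TPM (log2 difference 6.57, SE 0.79). All emMidgut libraries lay far below emSI, and libraries 2 and 4 held almost none. Kcne3, a potassium channel subunit of intestinal chloride secretion, stood at 0, 2.96, 0 and 0 TPM in emMidgut and at 107, 113 and 85.9 TPM in emSI (log2 difference 6.18, SE 0.55). Krt20, a keratin of differentiated intestinal epithelium, was present at both stages and rose from 14.2, 25.3, 30.3 and 40.7 TPM to 82.0, 54.1 and 72.0 TPM (log2 difference 1.37, SE 0.33, adjusted p = 0.014).

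The brush border was mixed. Of 14 structural genes tested 3 rose and 5 were called lower, 3 of these under all 3 scalings. Cdhr5, a cadherin of the links between microvilli, rose from 0.558, 1.13, 0.360 and 0.325 TPM to 13.6, 3.56 and 4.44 TPM (log2 difference 2.19, SE 0.54). Myo7b, a myosin of the same links, rose by 2.50 (SE 0.51). Espn and Pls1 encode actin bundlers and fell. Espn stood at 85.9, 78.9, 92.6 and 66.2 TPM in emMidgut and 5.00, 17.4 and 29.8 TPM in emSI (log2 difference -2.44, SE 0.45) and Pls1 at 83.9, 67.2, 96.2 and 76.9 and 19.4, 27.1 and 31.3 TPM (log2 difference -1.62, SE 0.24), each without overlap. The third classic bundler, Vil1, was listed at 3.06, 16.7, 23.6 and 15.6 TPM and 14.8, 14.4 and 37.6 TPM, and its stages overlapped (log2 difference 0.69, SE 0.60, adjusted p = 0.433). The summed level of 16 digestive enzyme genes of the brush border lay between 81.9 and 113 TPM in emMidgut and between 81.9 and 121 TPM in emSI. Lct, Sis and Alpi, the genes of lactase, sucrase-isomaltase and intestinal alkaline phosphatase, did not exceed 1.23, 0.142 and 3.07 TPM in any of the 7 libraries. Of 7 enzyme genes tested 1 rose (2 without emSI 1 or without emSI 2), the peptidase gene Anpep, from 5.97, 3.27, 2.28 and 1.31 TPM to 13.4, 26.3 and 16.5 TPM (log2 difference 2.30, SE 0.49, adjusted p = 0.00782).

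**Figure D2:**
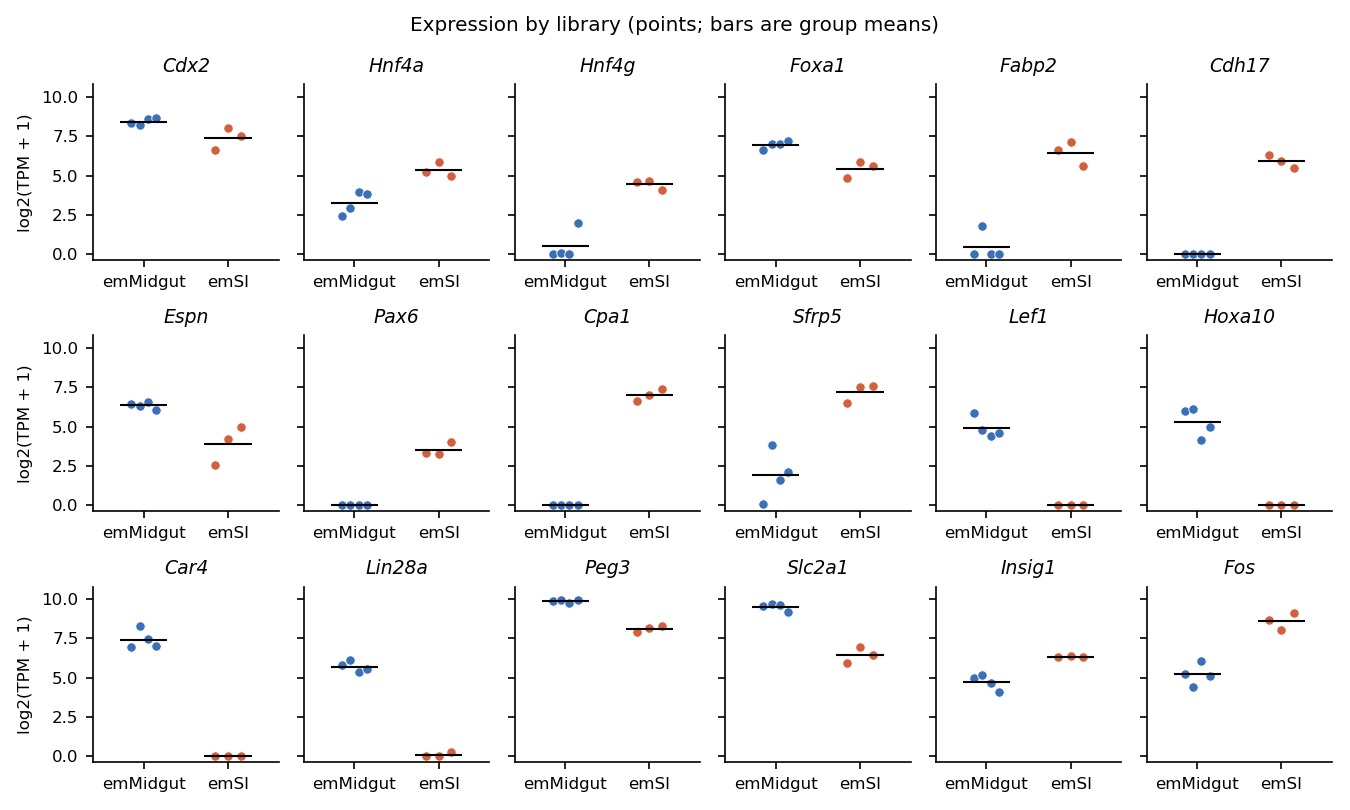
Expression of 18 genes in each of the 4 emMidgut and 3 emSI libraries, as log2(TPM + 1); points are libraries and bars group means. Fabp2, Cdh17 and Cpa1 rise from 0 or close to it in every emSI library, Lin28a, Hoxa10 and Car4 do the reverse, and Cdx2 is high at both stages.

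Uptake genes changed in both directions. Among 19 nutrient transporters tested, 2 rose and 3 fell, beside 3.1% and 5.75% of all genes. With the deposited TPM 13.51% of all genes were called lower, a share near that of this list. The facilitative glucose transporters of fetal tissue fell, Slc2a1 from 752, 819, 783 and 565 TPM to 59.0, 123 and 84.0 TPM (log2 difference -3.08, SE 0.22, adjusted p = 1.37e-05) and Slc2a3 from 431, 461, 341 and 291 TPM to 16.6, 54.8 and 50.9 TPM (log2 difference -3.34, SE 0.35). The zinc importer gene Slc39a4 fell too (log2 difference -3.91, SE 0.53). Slc40a1, the iron exporter ferroportin, and Amn, which anchors the cobalamin receptor, rose by 1.17 (SE 0.22) and 2.91 (SE 0.58). Of 23 genes of lipid absorption and lipoproteins, 3 were called higher and 4 lower, 2 and 3 of them under all 3 scalings. The lower calls were near the 13.51% of all genes. Acsl5, a fatty acid activating enzyme gene, rose by 1.66 (SE 0.37). Apoa1, the main protein of high-density lipoprotein, was listed at 29.7, 183, 236 and 259.5 TPM in emMidgut and 412, 754 and 541 TPM in emSI and was called higher with the deposited TPM (log2 difference 2.02, SE 0.60, adjusted p = 0.0332) but not after quantile normalization, nor without emMidgut 2 (2.16), emSI 2 (1.79) or emSI 3 (2.03). Apoe, which is abundant in yolk sac and early endoderm, fell from 258, 306, 498 and 306 TPM to 35.2, 87.7 and 86.4 TPM (log2 difference -2.34, SE 0.32), and Plin2, a lipid droplet coat gene, fell as well (-1.76, SE 0.32). Apob, the backbone of chylomicrons, lay at 29.7, 33.5, 44.6 and 34.3 and 26.2, 45.0 and 41.5 TPM with overlap (log2 difference 0.06, SE 0.27, adjusted p = 0.901).

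Of 19 enteroendocrine genes tested 5 rose and 3 were called lower, 1 under all 3 scalings, and the count of rises was 3 without emSI 1, 3 without emSI 2 and 2 without emSI 3, where genes at 0 in emMidgut leave the test. Chgb, a granin of hormone granules, was listed at 0, 0, 0 and 0.0682 TPM in emMidgut and 8.89, 138 and 184 TPM in emSI (log2 difference 5.96, SE 0.85, adjusted p = 7.89e-04). Every emSI library lay above every emMidgut library, as the filter required of a gene so low in emMidgut, but emSI 1 was far below the other 2. Pax6, an endocrine transcription factor gene, was at 0 in every emMidgut library and at 8.80, 8.74 and 15.3 TPM in emSI, and Resp18, a secretory granule gene, at 0 and at 11.2, 21.04 and 12.6 TPM. Sct, the secretin gene, was already present at 59.8, 9.80, 9.83 and 13.9 TPM and rose to 69.4, 86.6 and 97.9 TPM (log2 difference 2.23, SE 0.52). Tac1, the substance P precursor gene, went the other way, from 22.8, 24.4, 10.96 and 20.5 TPM to 0 in all 3 emSI libraries. Neurog3, the factor that commits cells to the endocrine fate, was detected in 1 emMidgut and 2 emSI libraries, at 0, 32.6, 0 and 0 TPM and 0, 71.1 and 11.5 TPM. Among 12 goblet and mucus genes 1 rose (2 without emSI 3), Agr2, a mucin folding gene, from 3.39, 0, 0 and 0 TPM to 19.8, 20.3 and 62.4 TPM, and 2 fell, among them Spink1, a trypsin inhibitor gene, from 399, 545, 472 and 409 TPM to 52.1, 39.2 and 125 TPM (log2 difference -2.81, SE 0.31). Muc2 did not exceed 6.72 TPM and Atoh1 not 0.559 TPM in any of the 7 libraries. Of the 10 Paneth and tuft cell genes 1 passed the filter, and it was not called except without emMidgut 4.

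The summed level of 13 stomach and pancreas markers lay between 10.3 and 21.4 TPM in emMidgut and between 178 and 349 TPM in emSI, and of the 9 tested 4 rose and 2, the foregut factor genes Sox2 and Sox21, were called lower with the deposited TPM but not under all 3 scalings, with counts of 0 or 1 in fits without any 1 library other than emMidgut 2. The count of rises was 2 without emSI 1 and 2 without emSI 3. Cpa1, a pancreatic carboxypeptidase gene, was listed at 0 in all 4 emMidgut libraries and at 97.9, 128 and 167 TPM in emSI. Clps, the colipase gene, rose from 0, 22.6, 3.89 and 2.85 TPM to 101, 377 and 321 TPM (log2 difference 5.66, SE 0.85). Pdx1, the factor of duodenum and pancreas, was listed at 0, 5.96, 0 and 0.205 TPM in emMidgut and 18.3, 6.86 and 20.2 TPM in emSI (log2 difference 3.12, SE 0.73, adjusted p = 0.0118). Each of these 3 genes was higher in every emSI library than in any emMidgut library. How much of this RNA came from cells next to the intestine was not tested.

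Most of the signalling genes tested were not called in either direction. Of 23 Wnt pathway genes tested 3 rose and 6 were called lower, 3 of them under all 3 scalings. Sfrp5, a secreted Wnt inhibitor gene of foregut and midgut endoderm, rose from 0.0321, 13.03, 2.06 and 3.24 TPM to 88.3, 179.9 and 189.7 TPM (log2 difference 5.30, SE 0.70, adjusted p = 4.81e-04). Myc, a Wnt target, rose from 8.48, 5.07, 14.1 and 1.16 TPM to 45.4, 63.9 and 20.8 TPM (log2 difference 2.61, SE 0.63). Sfrp1, another inhibitor, was called higher (2.86, SE 0.94, adjusted p = 0.0487) on 2.695, 2.51, 0.880 and 4.56 TPM against 136, 26.8 and 3.02 TPM, but emSI 3 lay within the emMidgut range, the order of the emSI libraries was that of their mesenchymal markers, and it lost the call without any single library other than emSI 3 (1.63 without emSI 1). Lef1, the effector of Wnt signalling in progenitors, fell from 58.1, 26.6, 20.0 and 23.005 TPM to 0, 0.0152 and 0 TPM (log2 difference -4.90, SE 0.48, adjusted p = 8.43e-05). Wls, needed to secrete Wnt ligands, fell by a log2 difference of -1.83 (SE 0.23) and the ligand gene Wnt5a by one of -2.35 (SE 0.56). The Wnt target Axin2 did not exceed 2.11 TPM and the stem cell gene Lgr5 not 8.15 TPM in any of the 7 libraries, and neither was called.

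Of 24 genes of Hedgehog, BMP and other epithelial signals, 4 were called lower, 3 under all 3 scalings, and none higher (1 without emSI 3). The lower calls were near the share of all genes, 13.51%. Tgfb2, a growth factor gene, fell from 58.8, 45.9, 54.0 and 46.4 TPM to 2.82, 7.38 and 7.21 TPM (log2 difference -3.02, SE 0.35, adjusted p = 2.14e-04) and the angiogenic factor gene Vegfa by a log2 difference of -1.68 (SE 0.38). The 2 Hedgehog ligands of the epithelium differed. Shh was lower in every emSI library, at 131, 155, 161 and 138 TPM and 61.0, 58.2 and 110.1 TPM, with a log2 difference of -0.99 (SE 0.23, adjusted p = 0.0106) that just missed the fold required, and it was called without emMidgut 1 (-1.04), emMidgut 4 (-1.01) or emSI 3 (-1.28). Ihh overlapped, at 36.6, 21.4, 39.9 and 24.9 and 37.5, 47.0 and 30.8 TPM (log2 difference 0.34, SE 0.29). Of 14 Notch pathway genes 1 rose and 2 were called lower, 1 under all 3 scalings, with lower calls again near the share of all genes. Notch2 fell from 39.9, 46.0, 57.7 and 49.5 TPM to 13.7, 10.4 and 17.8 TPM (log2 difference -1.74, SE 0.28), while Notch1 was called higher on 6.81, 0.0628, 0.938 and 0.809 TPM against 12.4, 7.57 and 7.48 TPM (log2 difference 2.09, SE 0.66, adjusted p = 0.0408), a call lost without any 1 of 6 libraries, all but emMidgut 1. Of 16 retinoic acid genes 1 rose and 6 were called lower, 4 under all 3 scalings. The receptor gene Rarb fell from 66.9, 95.2, 91.4 and 106 TPM to 25.5, 6.08 and 45.2 TPM (log2 difference -2.13, SE 0.50), Rarg and the binding protein gene Crabp2 fell by log2 differences of -2.91 (SE 0.53) and -2.11 (SE 0.45), and Cyp26b1, which breaks retinoic acid down, rose from 0, 0.0267, 0.0929 and 0.201 TPM to 2.97, 3.61 and 4.37 TPM, though without any 1 emSI library it no longer passed the filter.

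Of 31 Hox genes tested, the genes that encode position along the body axis, 15 were called lower and none higher, 9 of them under all 3 scalings, with a median difference of -1.74. The background of lower calls was 13.51%. Hoxa10 was listed at 61.8, 67.5, 17.0 and 30.4 TPM in emMidgut and at 0 in all 3 emSI libraries, and Hoxb9 at 21.4, 16.1, 14.6 and 11.2 TPM and at 0. Hoxa9 fell from 25.1, 17.0, 18.2 and 13.1 TPM to 0, 0.106 and 0 TPM (log2 difference -4.19, SE 0.44) and Hoxa7 from 52.6, 42.1, 16.1 and 25.8 TPM to 4.37, 0 and 0 TPM (log2 difference -4.20, SE 0.65). The count ranged from 10 to 16 when single libraries were left out and was 2 without both emMidgut 1 and 3. In that last fit genes at 0 in emSI, such as Hoxa10 and Hoxb9, could not pass the filter. Of 11 markers of colon and posterior gut 3 were tested and 2 fell. Their summed level lay between 140 and 322 TPM in emMidgut and between 0.751 and 8.87 TPM in emSI, and most of it in emMidgut was Car4, a carbonic anhydrase of distal gut epithelium, at 121, 307, 174 and 129 TPM and then at 0 in every emSI library.

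Of 16 heterochronic and oncofetal genes, which mark early developmental time, 9 were called lower and none higher, 5 under all 3 scalings. Lin28a, the blocker of let-7 maturation, was listed at 55.2, 67.4, 39.4 and 45.6 TPM in emMidgut and at 0, 0 and 0.226 TPM in emSI (log2 difference -5.60, SE 0.39, adjusted p = 1.11e-05). The orphan receptor gene Nr6a1 fell from 34.5, 42.0, 44.6 and 42.5 TPM to 4.51, 6.42 and 5.95 TPM (log2 difference -2.67, SE 0.30) and the AT-rich DNA-binding factor gene Arid3b by a log2 difference of -2.78 (SE 0.32). Hmga2, a chromatin gene of fetal growth, stayed high at 207, 212, 235 and 245 TPM and 189, 164 and 182 TPM and was not called (-0.33, SE 0.14, adjusted p = 0.0954). Of 18 intestinal stem cell and fetal progenitor genes 1 was called higher, a call lost without emMidgut 1 or emMidgut 2, and 7 lower, 5 under all 3 scalings. Sox4 fell from 88.9, 116, 151 and 175 TPM to 37.1, 51.0 and 34.5 TPM (log2 difference -1.65, SE 0.25). Olfm4, a crypt stem cell gene, was listed at 0.0501, 2.06, 6.14 and 3.60 TPM in emMidgut and 0 in emSI, and it was called lower in the fit without emMidgut 1 but not with all libraries.

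Of 24 imprinted genes, expressed from 1 parental allele, 3 rose and 7 fell, each under all 3 scalings. Igf2, a growth factor gene, rose from 202, 173, 172 and 204 TPM to 387, 526 and 524 TPM (log2 difference 1.34, SE 0.15, adjusted p = 1.69e-04). The paternally expressed zinc finger gene Peg3 fell from 952, 968, 873 and 962 TPM to 243, 283 and 305 TPM (log2 difference -1.76, SE 0.11, adjusted p = 7.14e-06). Its emSI libraries spanned 243 to 305 TPM and its emMidgut libraries 873 to 968 TPM. Cdkn1c, the cell cycle inhibitor p57, fell by a log2 difference of -1.76 (SE 0.27), Sgce by one of -3.67 (SE 0.53) and Ndn by one of -2.01 (SE 0.30). Of 42 cell cycle genes 3 were called in each direction, 2 in each under all 3 scalings (1 higher without emMidgut 3), and median-ratio rescaling called 7 higher and 3 lower. The summed level of the list lay between 5032 and 5897 TPM in emMidgut and between 6397 and 7153 TPM in emSI, 35 of the 42 lay above the median of all genes, and 11 were higher and 3 lower in every emSI library than in any emMidgut library. Over all genes tested, 8.76% were higher and 24.4% lower in that way. The proliferation marker Mki67 stood at 27.3, 34.9, 25.8 and 22.3 TPM and 46.2, 48.4 and 21.4 TPM with overlap (log2 difference 0.40, SE 0.32, adjusted p = 0.392). Cdkn2b, an inhibitor of the G1 phase, rose from 7.07, 5.14, 2.40 and 5.56 TPM to 18.9, 49.1 and 20.6 TPM (log2 difference 2.27, SE 0.47), and Ccng2, an inhibitory cyclin of quiescent cells, fell by a log2 difference of -2.46 (SE 0.33). Of 23 DNA methylation and Polycomb genes, Dnmt3a, Dnmt3b and Tet1 were called lower with the deposited TPM (log2 differences -1.13, -2.20 and -1.16) and none was called under all 3 scalings. The lower calls were near the 13.51% of all genes, and their count was 1 without emMidgut 3 or emMidgut 4. The maintenance methyltransferase gene Dnmt1 had a log2 difference of -0.08 (SE 0.24).

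**Figure D3:**
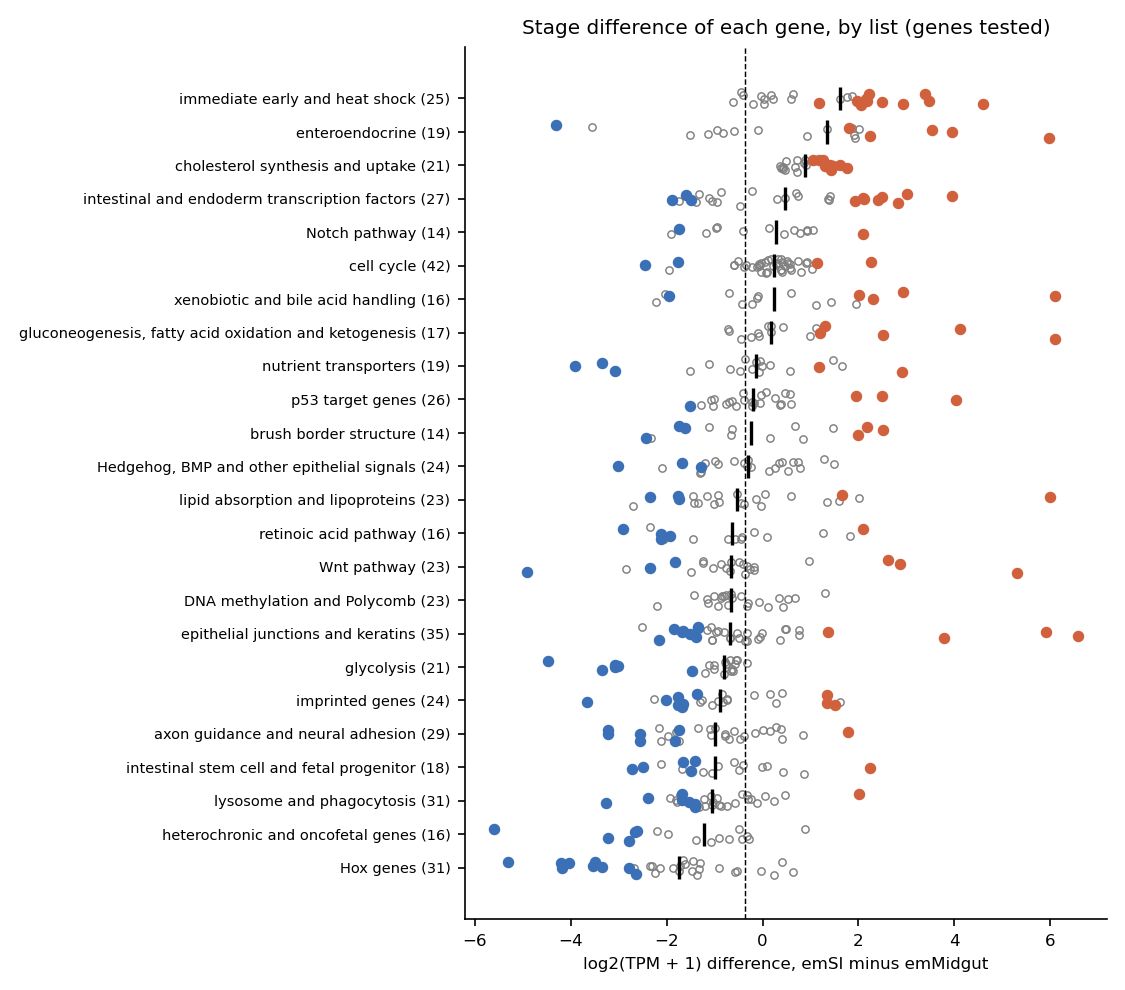
The log2 difference (emSI minus emMidgut, log2(TPM + 1), deposited TPM) of each tested gene in 24 gene lists, 1 point per gene; filled points were called under all 3 scalings, the short bar is the list's median and the vertical line the median of all 12531 genes (-0.37). The 21 cholesterol genes all lie to the right of that line, and 1 of the 21 glycolysis genes does.

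Of 21 glycolysis genes tested 9 were called lower and none higher, 6 under all 3 scalings, with a median difference of -0.80, and 1 lay above the median of all genes. Pfkp, a phosphofructokinase gene, fell from 80.5, 64.7, 51.2 and 22.8 TPM to 0, 3.11 and 1.87 TPM (log2 difference -4.48, SE 0.56, adjusted p = 3.39e-04). Slc16a1, the lactate transporter gene, fell from 274, 346, 245 and 299.8 TPM to 30.9, 25.7 and 47.3 TPM (log2 difference -3.07, SE 0.22, adjusted p = 1.11e-05). Pkm, which encodes pyruvate kinase, was among the most abundant, at 3245, 3732, 3154 and 2670 TPM in emMidgut and 1222, 1847 and 1418 TPM in emSI, and was called lower with the deposited TPM (-1.11, SE 0.14) but not after median-ratio rescaling, nor without emSI 1 (-0.97). Ldha, lactate dehydrogenase, overlapped between the stages and was not called (-0.65, SE 0.20).

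Of 21 genes of cholesterol synthesis and uptake 9 rose, all under the 3 scalings, and none fell, against 3.1% of all genes called higher under all 3. In 15 of the 21 every emSI library lay above every emMidgut library, beside 8.76% of all genes, and the median difference was 0.89. Idi1, an isomerase of isoprenoid synthesis, rose from 51.4, 53.04, 22.0 and 43.6 TPM to 144, 101 and 181 TPM (log2 difference 1.75, SE 0.31, adjusted p = 0.00286). Insig1, the sterol sensor that is itself sterol regulated, stood at 29.8, 34.8, 24.2 and 16.0 TPM in emMidgut and, within a narrow range, at 78.3, 80.9 and 78.8 TPM in emSI (log2 difference 1.62, SE 0.27). Leaving out single libraries gave between 7 and 10 rises, and leaving out emMidgut 1 and 3 gave 4.

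Of 17 genes of gluconeogenesis, fatty acid oxidation and ketogenesis 5 rose and none fell. Fbp2, a fructose bisphosphatase gene of gluconeogenesis, rose from 3.59, 0, 0 and 0.310 TPM to 110.2, 157 and 89.6 TPM (log2 difference 6.22, SE 0.57). Cpt1a, which admits fatty acids to the mitochondrion, rose by 2.52 (SE 0.61), and Acadl, a dehydrogenase of the oxidation cycle, by 1.31 (SE 0.19). Of 13 mitochondrially encoded mRNAs none was called with limma, and 4 were lower in every emSI library than in any emMidgut library. That count is near the share of all genes, 24.4%. The 13 mRNAs made up between 2.96% and 3.64% of TPM in emMidgut and between 2.68% and 3.34% in emSI.

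Of 31 genes of lysosome and phagocytosis 16 were called lower, 7 under all 3 scalings, with a median difference of -1.05. The emMidgut gate took cells with a low mCherry signal and the emSI gate did not, so gate and stage cannot be told apart in this list. Ctsd, the aspartic protease cathepsin D, fell from 332, 372, 471 and 426 TPM to 179, 137 and 132 TPM (log2 difference -1.42, SE 0.16, adjusted p = 2.14e-04), Npc1, the cholesterol exporter of the lysosome, by a log2 difference of -2.39 (SE 0.33), and Elmo1, a factor for engulfment, by one of -3.27 (SE 0.50). The single gene called higher was Tfeb, the regulator of lysosomal genes, at 1.31, 0, 0.0565 and 0.606 TPM and 7.31, 4.74 and 2.86 TPM (log2 difference 2.02, SE 0.53), which lost the call without emMidgut 2 (1.85), emSI 1 (1.74) or emSI 2 (2.01). Of 35 junction and keratin genes 4 rose and 11 were called lower, 8 under all 3 scalings, with 2 rises left without emSI 2 or without emSI 3. Cdh1, the epithelial cadherin, fell from 140.4, 154, 143 and 167 TPM to 45.5, 48.8 and 62.8 TPM (log2 difference -1.52, SE 0.18, adjusted p = 2.20e-04), in contrast to Epcam, which was not called (0.23, SE 0.12). Dsp, desmoplakin, fell from 50.1, 51.6, 52.0 and 57.4 TPM to 10.7, 11.2 and 11.2 TPM (log2 difference -2.16, SE 0.24), and Cldn6, the claudin of embryonic epithelia, by a log2 difference of -1.35 (SE 0.18). Of 29 axon guidance and neural adhesion genes 10 were called lower, 6 under all 3 scalings. Robo2, a Slit receptor gene, fell from 94.5, 149, 108 and 147 TPM to 28.6, 16.6 and 3.43 TPM (log2 difference -3.22, SE 0.51), Nrp1, a semaphorin coreceptor, by a log2 difference of -3.22 (SE 0.51) and the adhesion gene Cadm1 by one of -2.56 (SE 0.32). A single member was called higher, Epha2, an ephrin receptor gene (1.78, SE 0.57), and it lost the call without any 1 of 6 libraries, all but emMidgut 2.

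Of 25 immediate early and heat shock genes tested 11 rose and none fell, with a median difference of 1.61, and leaving out single libraries gave between 9 and 11. Fos stood at 37.2, 20.2, 66.5 and 32.9 TPM in emMidgut and 399, 264 and 553 TPM in emSI (log2 difference 3.40, SE 0.35, adjusted p = 1.32e-04). Egr1 rose from 9.84, 12.7, 33.8 and 12.8 TPM to 160.4, 144 and 255 TPM (log2 difference 3.47, SE 0.38), Nr4a1 from 1.38, 0, 3.65 and 1.47 TPM to 48.0, 32.3 and 101 TPM (log2 difference 4.59, SE 0.58) and Zfp36, which degrades such transcripts, by 2.92 (SE 0.51). These genes are known to respond to tissue dissociation as well as to growth signals. The study describes the same dissociation for both stages, but only the emMidgut cells were magnetically enriched. Enrichment, pooling and sorting day cannot be told apart from stage, and their part in these rises was not tested. Of 26 p53 target genes 3 rose and 1 fell (2 without emSI 3). Pmaip1, the death effector Noxa, rose from 3.42, 1.41, 0 and 0 TPM to 33.1, 33.5 and 21.2 TPM (log2 difference 4.04, SE 0.59), the antiproliferative gene Btg2 by 2.48 (SE 0.35) and Phlda3 by 1.95 (SE 0.39). Cdkn1a, the best known target, had a log2 difference of 0.46 (SE 0.17, adjusted p = 0.0793). Of 16 genes of xenobiotic and bile acid handling 4 rose, among them Ugt2b34 (2.92, SE 0.48), a glucuronosyltransferase gene, and Slc51a (2.31, SE 0.38), a subunit of the basolateral bile acid exporter, and 2 were called lower, 1 of them, the efflux pump gene Abcg2 (-1.94, SE 0.24), under all 3 scalings and without any 1 library. Of 13 mucosal defence and antigen presentation genes 1 was called higher, Irf1 (2.02, SE 0.54), a call lost without emMidgut 1 (1.74), emMidgut 2 (1.65) or emSI 3 (1.92), and none lower (1 without emMidgut 1 and 3 without emSI 1).

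Markers of other cell types were followed as summed TPM over each list. Neural and neural crest markers lay between 34.5 and 70.1 TPM in emMidgut and between 3.34 and 16.2 TPM in emSI, with 3 of 5 tested called lower, 2 of them under all 3 scalings, among them the neural cytoskeleton gene Stmn2 (10.3, 13.96, 22.4 and 53.5 and 4.52, 0 and 0 TPM). Blood markers lay between 15.8 and 25.9 TPM and between 0.151 and 9.64 TPM, and 7 of the 13 did not exceed 1 TPM in any of the 7 libraries. Most of the sum in emMidgut 1, 2 and 4 was Csf1r, the macrophage receptor gene. Csf1r fell from 13.53, 20.7, 7.59 and 20.5 TPM to 0 in every emSI library. It averaged 17.5 TPM in the EPCAM+ mCherry+ exMidgut cells, and the cell type it came from was not tested. Mesenchymal markers lay between 215 and 353 TPM in emMidgut and at 1148, 232 and 109 TPM in emSI 1 to 3, and of the 10 tested 2 were called lower, 1 under all 3 scalings, which became 4 lower without emSI 1, 4 higher and 1 lower without emSI 3, and 1 lower without any other library. Germ cell markers lay between 104 and 503 TPM in emMidgut and between 55.5 and 71.6 TPM in emSI with none of 5 tested called (1 lower without emMidgut 1 or emSI 2, and 2 without emMidgut 2 or emSI 3). Endothelial markers were at 28.96, 0.0245, 7.96 and 2.06 TPM in emMidgut 1 to 4 and between 0.0351 and 0.0489 TPM in emSI. Surface ectoderm markers spanned 15.2 to 30.7 TPM and 3.71 to 24.6 TPM with none of 3 tested called (1 lower without emSI 1), and notochord and floor plate markers 14.3 to 38.8 TPM and 2.53 to 8.36 TPM, with 1 of 4 tested notochord genes called lower but not under all 3 scalings, nor without emMidgut 1 or emMidgut 4. Visceral endoderm, yolk sac and liver markers lay between 1307 and 1790 TPM in emMidgut and between 602 and 959 TPM in emSI, with 1 of 10 called higher and 4 lower, 1 of each under all 3 scalings. Without emMidgut 2, emMidgut 3, emSI 1 or emSI 2 the lower calls were 2, and without emMidgut 2, emMidgut 3 or emSI 3 the higher call was lost. Afp, the fetal serum protein of yolk sac and liver, fell from 662, 734, 951 and 978 TPM to 71.8, 180.2 and 56.7 TPM (log2 difference -3.17, SE 0.32, adjusted p = 1.10e-04). The share of any of these cell types in the changes above was not tested.

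**Figure D4:**
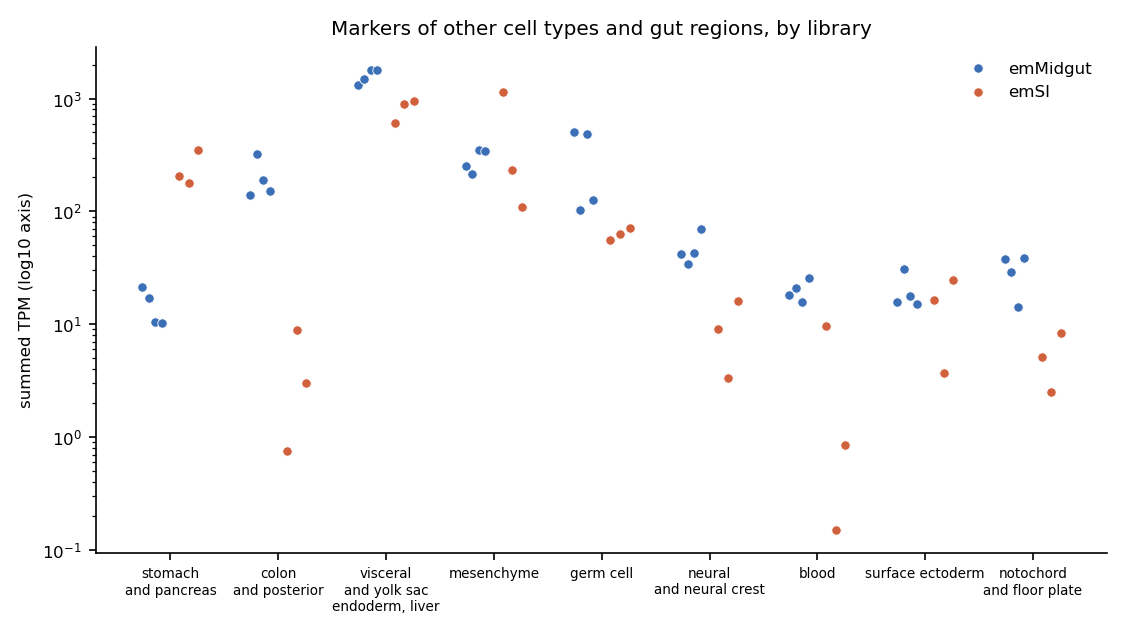
Summed TPM of 9 lists of cell type markers in each of the 7 libraries, on a log10 axis; points are libraries, joined by no line. Stomach and pancreas markers are higher in all 3 emSI libraries (178 to 349 TPM) than in any emMidgut library (10.3 to 21.4 TPM), the sum of colon and posterior markers, most of it Car4, is lower, and the mesenchymal sum of emSI 1 (1148 TPM) stands above the other 6 libraries.

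The distal gut of the same embryonic lineage served to compare the stage changes along the gut. The change from emMidgut to emSI was set against the change from emHindgut to emColon in 1 limma fit over 14 libraries and 13525 genes. The difference between the changes was called at an adjusted p below 0.05 in 1401 genes (10.4%), positive in 801 (5.92%) and negative in 600 (4.44%), and 3474 genes (25.7%) had an unadjusted p below 0.05. Of the 407 genes called higher in emSI, 131 were also called positive and 18 negative, and of the 1693 called lower 292 were called negative and 19 positive. Both comparisons hold the same emSI and emMidgut libraries, so part of this agreement in sign was fixed in advance and is no separate support. Fabp2 and Lypd8 were called positive. Fabp2 averaged 0.603 TPM in emMidgut, 93.9 in emSI, 0 in emHindgut and 0.468 in emColon, and Lypd8 0, 159.9, 0 and 8.70 TPM, whereas Cdh17 reached a mean of 40.7 TPM in emColon and Kcne3 one of 92.8 TPM and neither was called. The pancreatic genes Cpa1 and Clps, and Chgb, Resp18 and Sfrp5, were all positive and at 0 in every emColon library. The emColon libraries held 11651, 10382 and 11330 genes above 1 TPM, each fewer than any emSI library. The part of this in the zeros of emColon was not tested. The factor genes Hnf4a and Klf5 had differences of -2.57 (SE 0.80, adjusted p = 0.051) and 0.40 (SE 0.49, adjusted p = 0.65) and were not called, and Isx, at a mean of 0 in emHindgut and 161 TPM in emColon, was negative. Igf2, with 154 and 398 TPM on the hindgut side, had a difference of -0.05 (SE 0.30) and Slc2a3 one of 0.23 (SE 0.65).

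The negative genes were led by Spink1 and Afp, which fell in the midgut lineage but stood at means of 7.98 and 7.99 TPM in emHindgut and 833 and 548 TPM in emColon (differences -9.69, SE 0.70, adjusted p = 4.41e-07, and -9.42, SE 0.67, adjusted p = 4.41e-07). Peg3 was negative (-2.17, SE 0.20), as were Cdh1 (-1.73, SE 0.37), Dsp (-1.61, SE 0.38) and Cldn6 (-1.63, SE 0.23), and 17 of 36 junction and keratin genes were called negative and 2 positive. Of 21 cholesterol genes 8 were called positive and none negative, of 25 immediate early and heat shock genes 9 and 1, of 36 Hox genes 15 and 2, and of 43 cell cycle genes 16 and 2. Beside these counts, the emHindgut libraries held RNA of posterior mesoderm and tailbud. Msgn1 averaged 142 TPM and Fgf8 439 TPM in emHindgut and 0 and 0 TPM in emColon, both picked after their values were seen, and the part of this RNA in the difference was not tested. Without emMidgut 1 and 3, 430 genes were positive and 342 negative.

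**Figure D5:**
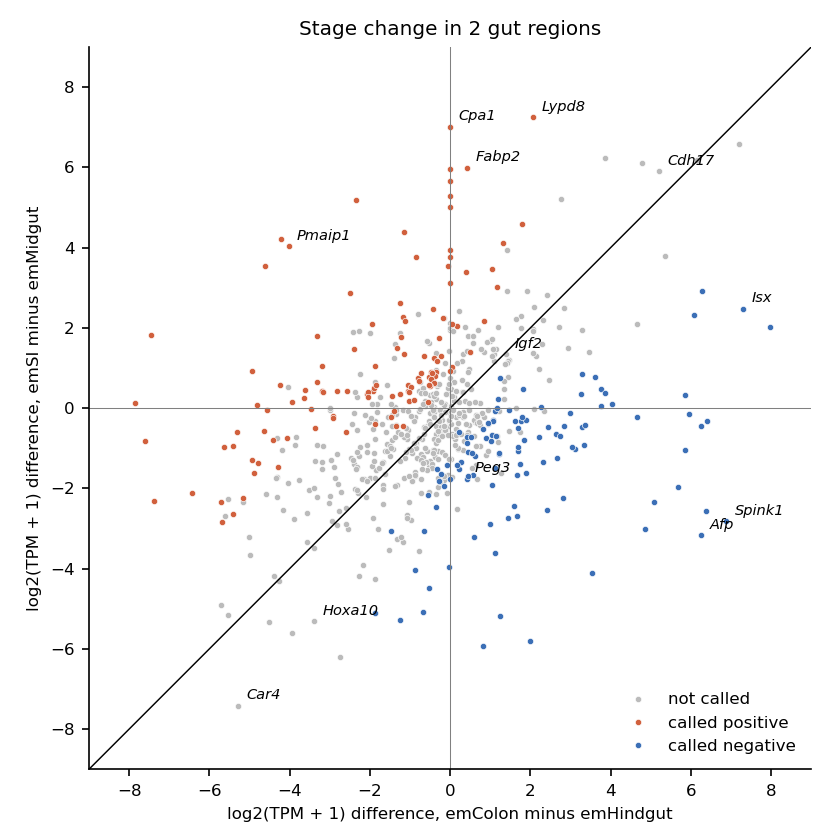
Stage change in the midgut lineage (emSI minus emMidgut, y axis) against that in the hindgut lineage (emColon minus emHindgut, x axis), both as differences of mean log2(TPM + 1), for the listed genes tested in both; the diagonal marks equal change, and colour marks the called sign of the difference. Cpa1 and Fabp2 lie above the diagonal, Spink1 and Afp below it, and Cdh17 and Igf2 close to it.

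The same change was then set against that of the mCherry+ cells of the same gut region, from exMidgut to exSI, in a fit over 14 libraries and 13544 genes. There 16 genes (0.118%) were called, 9 positive (0.0665%) and 7 negative (0.0517%), while 1302 (9.61%) had an unadjusted p below 0.05. The exSI cells lacked Trp53, so lineage, genotype and stage cannot be told apart in this comparison. Phlda3, a p53 target, averaged 13.9 TPM in emMidgut and 54.0 in emSI but 65.5 in exMidgut and 3.26 in exSI (difference 6.84, SE 0.89, adjusted p = 0.00268), and Ccng1, another target, 21.4, 29.0, 97.8 and 12.6 TPM (difference 3.18, SE 0.51, adjusted p = 0.0134). The amino acid transporter gene Slc38a5 averaged 92.8, 264, 26.1 and 0 TPM in the same order. Ctrb1, Reg1, Resp18 and Chgb, which rose in emSI, were listed at 0 in every exSI library, whereas Cpa1 reached a mean of 122 TPM there. Fabp1, a liver and intestinal fatty acid binding protein gene, went the other way, with means of 181, 98.4, 36.2 and 569 TPM (difference -4.78, SE 0.60, adjusted p = 0.00252). The remaining genes described above as rising or falling in emSI were not among the 16, and a p that misses the threshold does not show that they changed alike. Between the lineages the change of Fabp2 differed by 0.79 (SE 0.72, adjusted p = 0.778), Lin28a by 0.32 (SE 0.53, adjusted p = 0.9) and Slc2a1 by -1.20 (SE 0.37, adjusted p = 0.275). The count of calls ranged from 8 to 55 over fits without 1 library, highest without emSI 3, and was 4 without emMidgut 1 and 3.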

How the data were processed

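RNA from small pools of sorted cells was reverse transcribed by a full-length poly(A) method and sequenced as paired ends. After adapter removal (cutadapt 4.1), the authors mapped reads with STAR 2.7.9a to a genome of mm10 plus both reporter transgenes, and StringTie 2.0.6 gave gene abundance on GENCODE VM23. The deposited gene tables hold TPM, used for all main results, and FPKM, used as an alternative, and neither is a count. Aligned bases were worked out from the deposited coverage and FPKM columns, and coverage was put to no other use.

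TPM was summed per gene identifier (32287, of which 32235 matched GENCODE vM21, the release used here for gene type; 21704 were protein-coding). Protein-coding genes not on Y and above 1 TPM in at least 3 libraries were tested on log2(TPM + 1) with limma 3.58.1 in R 4.3.3 (lmFit, eBayes with trend, two-sided, Benjamini-Hochberg over all genes tested). A fold change on this scale understates that of low genes. For the stage comparison an absolute log2 difference above 1 was also required, and for the 2 differences between stage changes it was not. With 4 libraries against 3, an exact permutation test of 1 gene cannot give a p below 0.0571, so that single genes rest on the model across genes. The libraries are separate samples per the labels, from pools or single embryos. The fit was tested on simulated data with known changes.

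The members and gene lists were chosen with earlier results of these data known, and no list was tested as a set. The genes named are anchors of each list, up to 4 called genes per direction and list, the 12 largest non-overlapping rises and falls with a mean of at least 10 TPM at the higher stage, and the 6 largest differences per direction of each comparison of stage changes among genes called between the stages; a part of them is given. Genes outside this rule are marked as picked after their values were seen. Promoters are RefSeq's for GRCm38.p6. Alternatives were a pseudocount of 0.1, other filters, quantile normalization, median-ratio rescaling, FPKM, no trend, all gene types, replicate and embryo blocks, a fit over 28 gut libraries, and leaving out libraries. Other libraries of the series were not used here, and some genes that the rule names are not reported here.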

Additional observations from a re-analysis of the deposited data

Results flagged for a closer look

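Of 130 named genes tested for a single emMidgut library set apart from the other 3, 18 had a gap to the nearest library, as a share of the group's range, above Dixon's critical value at the 95% level. Chance gives this in about 1 in 20 groups of normally distributed values. A gene at 0 in 3 libraries exceeds it whatever its value in the remaining one, so that rate is no measure for the 18. In 7 of them the library was emMidgut 2. It held Fabp2 at 2.41 TPM, Kcne3 at 2.96 TPM, Lct at 1.23 TPM and Neurog3 at 32.6 TPM, and all 4 genes were listed at 0 in the other 3 libraries. Pdx1 at 5.96 TPM, Nrp1 at 94.0 TPM and the amino acid transporter gene Slc38a5 at 294 TPM were also set apart upwards in emMidgut 2. In emMidgut 1, Agr2 (3.39 TPM), Fbp2 (3.59 TPM), Notch1 (6.81 TPM), Sct (59.8 TPM) and the host reporter mCherry (5.29 TPM) stood above the other libraries. In emMidgut 3, Egr1 (33.8 TPM) and Sprr2a2 (1.52 TPM) stood above them and Peg3 (873 TPM) below. In emMidgut 4, Hnf4g (3.01 TPM), Mfap4 (3.23 TPM) and Wls (221 TPM) stood above them. The emMidgut and emSI libraries overlapped in 4 of the 18 genes (Lct, Neurog3, Slc38a5 and mCherry) and did not in the other 14.

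The stage change in the midgut lineage differed from that in the hindgut lineage in the following genes by limma's test of the difference itself, taken from the largest differences among those also called between emMidgut and emSI. The values are on the log2(TPM + 1) scale and, where a group is listed at 0 or near it, depend on the added 1 TPM. Positive were Mfap4 (8.43), Sprr2a2 (8.17), Pmaip1 (8.07), Cpa1 (7.01) and Chgb (5.96). Negative were Spink1 (-9.69), Afp (-9.42), Them7 (-7.86), G6pc2 (-7.79), Ppp2r2b (-7.64) and Smim38 (-7.63). By the same test, the stage change differed from that of the extraembryonic lineage positively for Slc38a5 (7.02), Phlda3 (6.84), Chgb (5.96), Ctrb1 (5.01), Resp18 (3.95) and Reg1 (3.77), and negatively for Ndufa4l2 (-3.87), Serpinf1 (-2.97) and Emid1 (-2.95).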

How the results depend on the processing

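Of 183 named genes called between emMidgut and emSI, 106 were called in every one of the 18 alternatives in which they were tested, and none changed direction. The number of genes called stayed within 1.5 times the main number except as follows. Quantile normalization gave 665 higher and 803 lower in emSI, median-ratio rescaling gave 689 higher and 1056 lower, and leaving out emMidgut 1 and 3 together gave 610 calls, 230 higher and 380 lower. Without those 2 libraries the lower calls went from 15 to 2 among Hox genes and from 6 to 1 among both Wnt and retinoic acid genes, and the higher calls from 9 to 4 among cholesterol genes and from 3 to 0 among brush border structural genes. In that fit genes at 1 TPM or less in every emSI library cannot pass the filter, and 153 of the 183 named genes were tested. Part of the loss of lower calls is therefore set by the filter. Leaving out 1 library gave 1500 to 2241 calls, 332 to 380 higher and 1158 to 1867 lower. For the difference from the hindgut lineage, the numbers without emMidgut 1 and 3 were 772 calls, 430 positive and 342 negative, and leaving out 1 library gave 1024 to 1936 calls, 556 to 1152 positive and 447 to 784 negative. The 16 calls of the difference from the extraembryonic lineage became 30 (17 positive and 13 negative) with no filter, 8 (4 positive and 4 negative) with a minimum of 4 libraries, 26 (15 positive and 11 negative) after quantile normalization, 35 (20 positive and 15 negative) without the trend, 26 (17 positive) in a fit over 28 libraries and 4 (3 positive and 1 negative) without emMidgut 1 and 3. Median-ratio rescaling and FPKM each gave 14 positive. Leaving out 1 library gave 8 to 55 calls, 4 to 37 positive and 2 to 18 negative, and moved the number of calls by over 1.5 times for emMidgut 1 and 3 (9 each), emSI 1 (10), emSI 2 (27), emSI 3 (55), exMidgut 2 (8), exMidgut 4 (10) and exSI 1 (26). Apart from the genes that the filter leaves out, the cause of these shifts was not tested.

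Same-numbered emMidgut and emSI libraries did not deviate together (correlations of 0.028, -0.011 and 0.021), and they were treated as unpaired. With the replicate number as a block, 407 genes were higher and 1698 lower in emSI, no named gene lost its call, and the differences from the hindgut and extraembryonic lineages gave 1342 and 16 calls. The files hold no counts, so no counting interval can be given for genes at a few TPM.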

Other observations

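Several genes were expressed in every emMidgut library and at or near 0 in every emSI library, beside the lists described above. They passed the filter through emMidgut alone, so their p is no separate support for the difference. Upp1, which encodes uridine phosphorylase 1, was at 102, 78.1, 82.2 and 45.4 TPM in emMidgut and at 0, 0 and 0.825 TPM in emSI, a log2 difference of -5.94 ± 0.42 (SE, limma, adjusted p = 1.1e-05). Gata3, a zinc finger transcription factor gene, was at 29.3, 37.5, 40.9 and 54.5 TPM and then at 0, 0.252 and 0.305 TPM, a log2 difference of -5.11 ± 0.41 (adjusted p = 2.6e-05). G6pc2, Vnn1, Hsd11b2 and Art5 had emMidgut means of 57.7, 36.1, 41.6 and 39.96 TPM and were listed at 0 in all 3 emSI libraries. Hsd11b2 encodes the enzyme that inactivates glucocorticoids.

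Lect2, which encodes a secreted protein known from liver, was at 0.488, 1.39, 4.08 and 0 TPM in emMidgut and at 63.9, 92.6 and 73.6 TPM in emSI, a log2 difference of 5.22 ± 0.55 (SE, limma, adjusted p = 0.00014). Tff1, a trefoil factor gene, was at 0, 0, 0 and 3.56 TPM and then at 22.9, 11.2 and 27.8 TPM. Krt23, a type I keratin gene, was listed at 0 in all 4 emMidgut libraries and stood at 6.13, 10.2 and 30.9 TPM in emSI. These 3 genes were also higher at the later stage in the extraembryonic lineage by their group means, which went from 2.18 to 109 TPM for Lect2, from 0.288 to 97.6 TPM for Tff1 and from 0.324 to 28.7 TPM for Krt23.

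H19, an imprinted non-coding RNA that was not tested with the protein-coding genes, split the emMidgut libraries, at 5.82, 3.05, 119 and 138 TPM, and was at 7.08, 4.31 and 2.20 TPM in emSI. Its group means in the extraembryonic lineage were 953 TPM in exMidgut and 1165 TPM in exSI.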
